A study of Mus musculus with 2 samples.

Results

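The genes described here are the heavy chains of major histocompatibility complex (MHC) class I and the light chain they share. They comprise H2-K1, H2-D1, H2-Q4, H2-Q6, H2-Q7, H2-T22, H2-T23, H2-M3 and B2m, 9 of the 22620 genes in the count tables, and all 9 were found by symbol. They were chosen by name and because H2-K1 and H2-D1 had been seen to part ways in cancer cells of these data, so those levels are a description and support nothing. Single-cell transcripts were counted in 1 library of primary tumours and 1 library of the paired lymph nodes (LNs), from C57BL/6J mice bearing tumours of EO771-HEVM3 cells. EO771 is a mouse breast cancer line from the C57BL/6 strain, and HEVM3 is a derivative passed through 3 rounds of selection in mice for cells that reach the lung by way of high endothelial venules, the vessels through which lymphocytes enter LNs. The mice were female, 5 to 6 weeks old per the study methods, 6 mice were pooled in each library and no label ties a cell to a mouse. No mouse without a tumour was among these samples, so both groups carry the same selected cell line. Since each tissue gave 1 library, differences could not be set against a spread between replicates, and none was tested. Bracketed ranges are exact 95% intervals that cover counting error only.

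Class I molecules carry peptides from inside the cell to its surface, where CD8 T cells read them. A heavy chain folds with beta-2 microglobulin, the product of B2m, in the endoplasmic reticulum, where the TAP transporter delivers peptides cut by the proteasome. H2-K1 and H2-D1 encode the classical heavy chains of this strain. H2-Q4, H2-Q6, H2-Q7, H2-T22, H2-T23 and H2-M3 encode non-classical ones, of which H2-T23 (Qa-1) is a ligand of inhibitory NK receptors and H2-M3 presents formylated peptides. NK cells are known to respond to cells that lose class I.

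In the GRCm38 build with GENCODE vM21, the gene B2m lies at chr2:122147686-122153083. The 8 heavy chain genes lie on chromosome 17, with H2-K1 at chr17:33996017-34000347 on the minus strand and H2-D1 at chr17:35262730-35267499 on the plus strand. The Q genes follow H2-D1, with H2-Q4 at chr17:35379617-35385290, H2-Q6 at chr17:35424850-35430055 and H2-Q7 at chr17:35439155-35443773. Farther along lie H2-T23 at chr17:36029773-36032855, H2-T22 at chr17:36037128-36042747 and H2-M3 at chr17:37270220-37274484. All are protein-coding, and the count tables gave the same gene identifiers (ENSMUSG00000061232 for H2-K1, ENSMUSG00000073411 for H2-D1, ENSMUSG00000060802 for B2m).

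Several of these genes are alike in sequence, which bears on how 3′ reads can be told apart. Of the 1130 different 90-base windows in the last 400 bases of the coding transcripts of H2-K1, 2 windows (0.177%) also occurred in another gene. For H2-D1 this was 0 of 712 windows, and for H2-Q7, H2-M3 and B2m it was also 0. H2-Q6 shared 32.2% of its windows with other genes, and H2-T22 shared 33.5% with H2-T10. H2-T23 shared 16.1% with Hook2 and Rab33b, and H2-Q4 shared 12.5% with genes such as Reep3 and Olfr552. Neither H2-T23 nor H2-Q4 shared any with another member. Reads from shared windows may be left uncounted, so the levels of these 4 genes are less certain than those of H2-K1 and H2-D1.

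The promoters of H2-K1 and B2m are shown because H2-K1 was at 8.19 CPM (unique molecular identifiers, UMIs, of a gene per 1000000 UMIs of the class) in primary tumour cancer cells while B2m was at 1409 CPM there. The sequences are those of RefSeq (GRCm38.p6), from 5′ to 3′ along each gene. Capitals mark matches on either strand to the fixed letters of an NF-kB site (GGGG then ATTCCC, or GGGA, any base and TTTCC), an interferon-stimulated response element (GAAA, any 2 bases and GAAA), the core of a cyclic AMP response element (TGACG) or a Y box (CCAAT). The H2-K1 stretch is chr17:34000348-34000597, the 250 bases before the annotated start on the minus strand, and the B2m stretch is chr2:122147437-122147685, up to the base before the annotated exon.
H2-K1: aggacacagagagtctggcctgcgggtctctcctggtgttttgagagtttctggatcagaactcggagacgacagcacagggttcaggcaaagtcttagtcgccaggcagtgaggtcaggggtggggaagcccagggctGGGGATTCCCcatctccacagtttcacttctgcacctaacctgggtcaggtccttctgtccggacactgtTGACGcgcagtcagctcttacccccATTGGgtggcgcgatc
B2m: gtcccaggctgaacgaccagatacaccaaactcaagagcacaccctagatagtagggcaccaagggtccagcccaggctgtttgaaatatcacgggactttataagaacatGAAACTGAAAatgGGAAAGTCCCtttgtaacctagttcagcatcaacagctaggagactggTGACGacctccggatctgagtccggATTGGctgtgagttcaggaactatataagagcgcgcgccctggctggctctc

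The first NF-kB letters, GGGG then ATTCCC, stood before the RefSeq start of 4 members, and their 30-base stretches are shown since they include the gene abundant in cancer cells (H2-D1) and 3 genes at 0.989 to 8.19 CPM in those of the primary tumour. The stretches begin with the match and lie at chr17:34000429-34000458 on the minus strand for H2-K1, and on the plus strand at chr17:35262923-35262952 for H2-D1, chr17:35424677-35424706 for H2-Q6 and chr17:35439022-35439051 for H2-Q7. The stretches do not have the same place relative to the GENCODE models. The 250 bases taken for H2-D1 (chr17:35262844-35263093) begin after the GENCODE start of that gene and lie wholly within an annotated exon, whereas 0 of 250 bases do so for H2-K1, H2-Q6 and H2-Q7. Of the other members, H2-T23 had 154 of 250 bases in an exon and H2-M3 had 14.
H2-K1: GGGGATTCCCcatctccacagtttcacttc
H2-D1: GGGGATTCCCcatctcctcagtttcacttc
H2-Q6: GGGGATTCCCcatctccccagtttcacttc
H2-Q7: GGGGATTCCCatctccccagtttcacttct

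Counted from the first base shown, H2-D1 differed from H2-K1 by A18T and H2-Q6 differed by A18C. Over the aligned part of their 250-base stretches, which for H2-D1 is exon sequence in GENCODE, H2-K1 and H2-D1 shared 167 of 191 columns (87.4%), and H2-Q6 and H2-Q7 shared 205 of 211 (97.2%). These NF-kB letters occurred in 0.0852% of the 32851 RefSeq promoters of this length. The other NF-kB form was found in B2m and in 0.356% of all promoters. The fixed letters of the interferon element were found in H2-T22, H2-T23 and B2m and in 2.98% of all. Elements with other letters were not searched for, so no member is said to lack one. CCAAT was in all 9 members and 33.8% of all promoters, and TGACG in 7 members and 17.8%. A match is a description of letters, and annotated starts differ between genes, so distances to the start were not compared.

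The deposited libraries held 12427 primary tumour cells (173317475 UMIs) and 11617 LN cells (122207852 UMIs). After limits on genes and mitochondrial UMIs and removal of likely doublets, 8756 and 9689 cells were kept, with medians of 9383 and 2324 UMIs. The libraries shared 47 cell barcodes, 31 of them among kept cells. Classes were named from fixed markers, and each name stands for cells like that type (cancer-like, T-like and so on). They were derived anew here and may differ from the names used in the study. The cancer class held 6115 primary tumour and 610 LN cells. The keratin Krt8 was at 1746 and 1046 CPM in them, against 99.4 and 15.6 CPM in the T cells of the same libraries. Cancer cells were deeper in the LN, with a median of 35058.5 UMIs against 14062, and 1 cluster with 2 primary tumour cells held 513 of the 610 LN cancer cells. Such a cluster may reflect its library rather than a kind of cell. The T class held 451 primary tumour and 3661 LN cells, and the endothelial class 49 and 153. Only the LN had at least 20 B cells (4634), plasma cells (85), plasmacytoid dendritic cells (57) and high endothelial cells (29).

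H2-K1 and H2-D1 diverged in cancer cells and in no other class to a like extent (the plot of H2-K1 against H2-D1). In primary tumour cancer cells H2-K1 was at 8.19 CPM [7.63 to 8.78], from 795 UMIs. H2-D1 was at 733 CPM [727 to 738] in the same cells, from 71131 UMIs. In LN cancer cells H2-K1 was at 38.0 CPM [35.4 to 40.7] and H2-D1 at 679 CPM [667 to 690]. H2-D1 was thus abundant in the cancer cells of both tissues, at a level within the range of other classes.

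Both genes are counted from 3′ ends, so the number of H2-K1 UMIs per H2-D1 UMI was compared across classes and not read as a ratio of molecules. It was 0.0112 [0.0104 to 0.0120] in primary tumour cancer cells and 0.0560 [0.0520 to 0.0602] in LN cancer cells. Across the other 9 classes of the primary tumour with at least 20 cells it ran from 0.880 in neutrophils to 2.37 in T cells. Across the other 9 classes of the LN it ran from 0.254 in neutrophils to 1.37 in NK cells. Every other class therefore lay above the cancer cells of both tissues, with no overlap of the counting intervals. Primary tumour cancer cells held 91.6% of all kept UMIs of their library and 88.0% of its H2-D1 UMIs, but 5.70% of its H2-K1 UMIs.

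**Figure D1:**
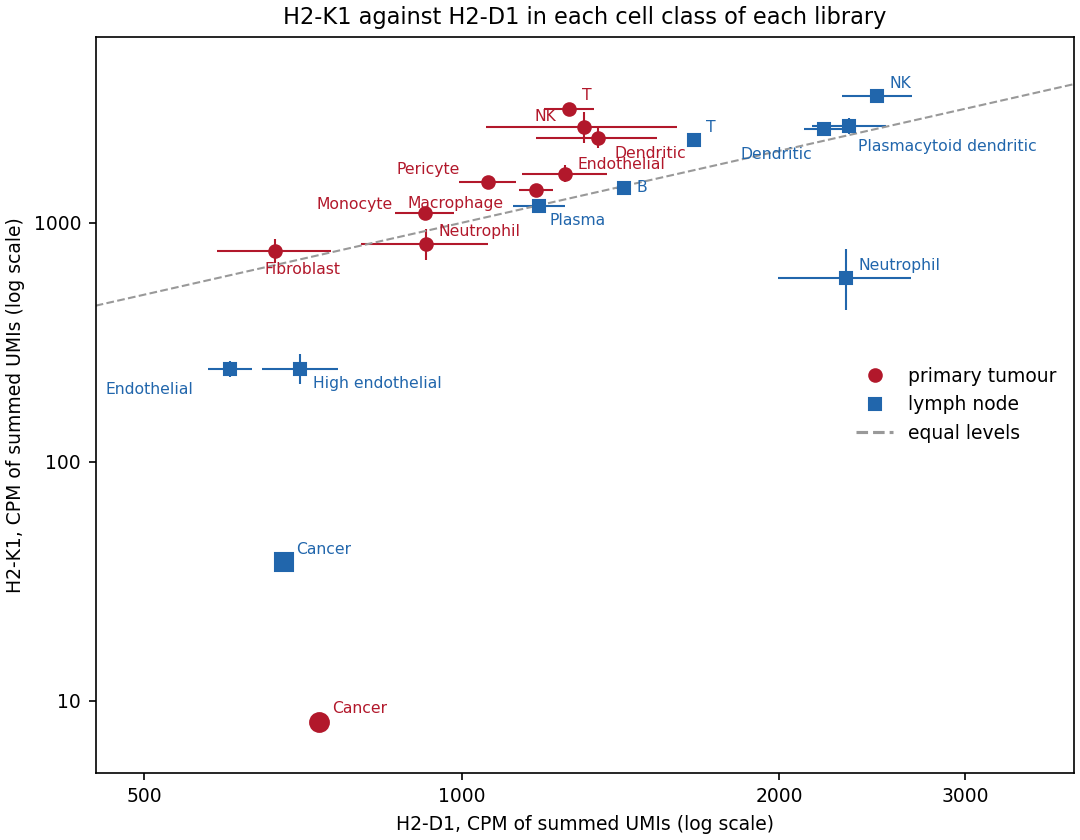
H2-K1 against H2-D1, both as CPM of summed UMIs on log axes, for each cell class with at least 20 cells in the primary tumour (circles) and the LN (squares). Bars are 95% Poisson intervals and the dashed line marks equal levels. Cancer cells lie near the other classes along the H2-D1 axis (733 and 679 CPM) and far below them along the H2-K1 axis (8.19 and 38.0 CPM).

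Outside the cancer class, H2-K1 was highest in lymphoid and dendritic cells. In the primary tumour the order was T cells (2998 CPM), NK cells (2515), dendritic cells (2273), endothelial cells (1605), pericytes (1478), macrophages (1375), monocytes (1100), neutrophils (814), fibroblasts (763) and cancer cells (8.19). Of the 9 pairs of neighbours in that order, 5 pairs overlapped in their counting intervals. They were T with NK cells, NK with dendritic cells, endothelial cells with pericytes, pericytes with macrophages, and neutrophils with fibroblasts. In the LN the order was NK cells (3379 CPM), plasmacytoid dendritic cells (2541), dendritic cells (2459), T cells (2222), B cells (1396), plasma cells (1172), neutrophils (587), endothelial cells (245), high endothelial cells (245) and cancer cells (38.0). There 2 of 9 pairs overlapped, both dendritic classes and both endothelial classes.

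H2-D1 varied less between classes. In the primary tumour it ran from 665 CPM [586 to 751] in fibroblasts to 1345 CPM [1177 to 1531] in dendritic cells, and cancer cells ranked 9 of 10, next to fibroblasts with overlapping intervals. In the LN it ran from 604 CPM [575 to 633] in endothelial cells to 2475 CPM [2290 to 2671] in NK cells, and cancer cells again ranked 9 of 10. For H2-D1, 7 of 9 neighbour pairs overlapped in the primary tumour and 4 of 9 in the LN.

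**Figure D2:**
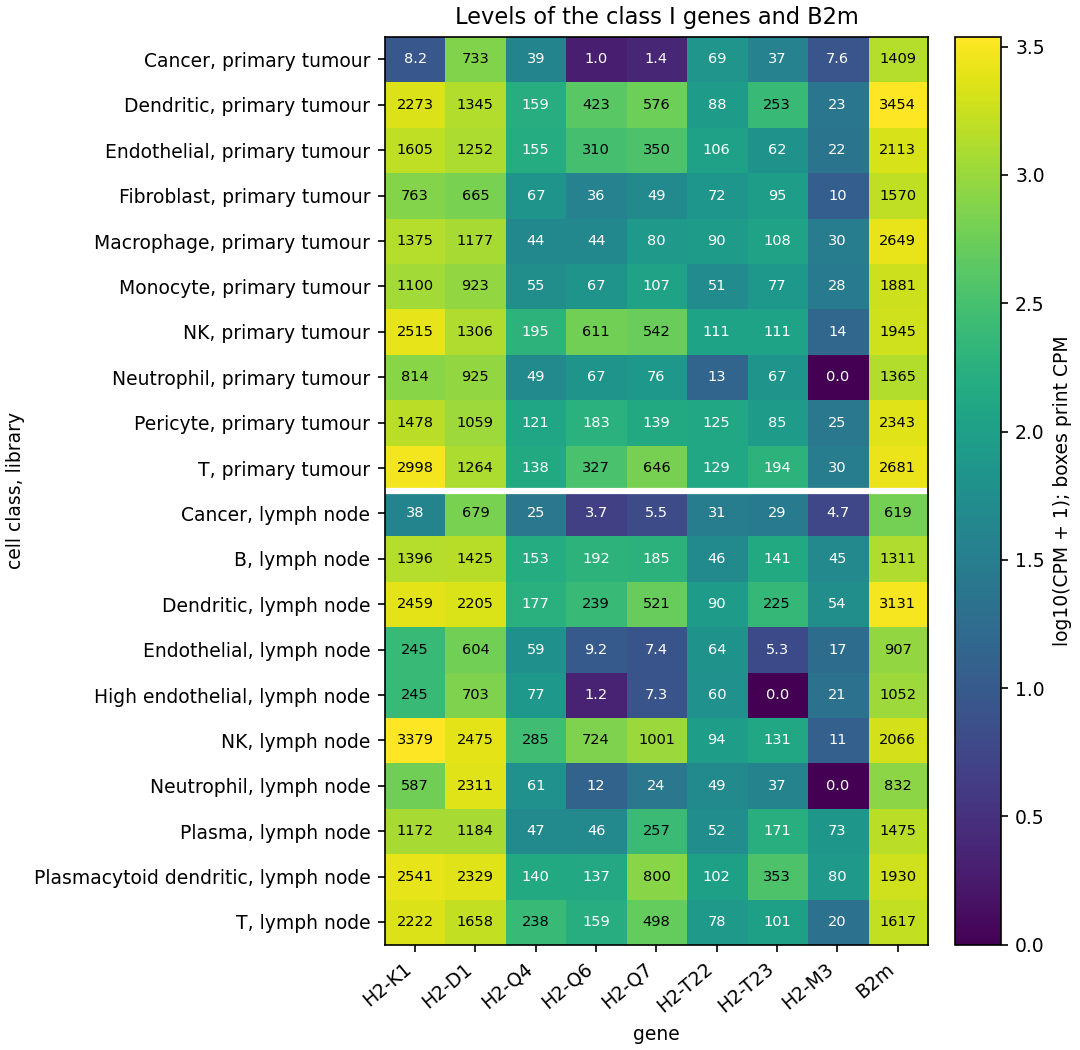
Levels of the 9 genes (columns) in each class and library (rows), as log10(CPM + 1) in colour and CPM printed in each box. H2-K1, H2-Q6 and H2-Q7 are dark in the cancer cells of both libraries (8.19, 0.989 and 1.43 CPM in the primary tumour) while H2-D1 and B2m are bright in every row.

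H2-Q6 and H2-Q7, neighbouring genes that encode Qa-2 heavy chains, had a pattern like that of H2-K1. H2-Q6 was at 0.989 CPM [0.801 to 1.21] in primary tumour cancer cells and at 36.1 CPM in fibroblasts, the lowest of the other classes. H2-Q7 was at 1.43 CPM and 49.0 CPM in the same classes. The highest primary tumour levels were 611 CPM of H2-Q6 in NK cells and 646 CPM of H2-Q7 in T cells. In LN cancer cells H2-Q6 was at 3.72 CPM and H2-Q7 at 5.54 CPM, and here the endothelial classes were also low, at 9.15 and 1.22 CPM of H2-Q6 and 7.39 and 7.31 CPM of H2-Q7. High endothelial cells had 1 UMI of H2-Q6, and their interval overlapped that of the cancer cells.

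H2-Q4, H2-T22 and H2-T23 had higher levels in cancer cells than H2-K1 in the primary tumour, and H2-M3 was as low as H2-K1 there but reached at most 79.6 CPM in any class. H2-Q4 was at 38.8 CPM in primary tumour cancer cells and 44.5 CPM in macrophages, the next class. H2-T22 was at 68.8 CPM in primary tumour cancer cells, where the other classes had a median of 90.2 CPM, and at 31.0 CPM in LN cancer cells, below all other classes there. H2-T23 was at 36.6 CPM and 28.5 CPM in the cancer cells of the primary tumour and LN. In LN cancer cells H2-K1, at 38.0 CPM, was above H2-Q4 (24.6 CPM), H2-T22 and H2-T23. These are counts from 3′ ends, which are not scaled by length. H2-M3 was at 7.58 CPM in primary tumour cancer cells, next to 8.19 CPM of H2-K1, and at most 30.1 CPM in any other class of that library. In the LN it was at 4.66 CPM in cancer cells, 20.1 CPM in T cells, 44.8 CPM in B cells, 72.5 CPM in plasma cells and 79.6 CPM in plasmacytoid dendritic cells. No H2-M3 UMI was found in neutrophils. Taking 3 UMIs as the limit that a count of 0 allows, this leaves room for up to 13.3 CPM in the primary tumour and 36.7 CPM in the LN.

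B2m was at 1409 CPM [1401 to 1416] in primary tumour cancer cells, next to neutrophils at 1365 CPM [1217 to 1527]. It was highest in dendritic cells, at 3454 CPM in the primary tumour and 3131 CPM in the LN. In LN cancer cells it was at 619 CPM [609 to 630], the lowest of the 10 LN classes.

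H2-K1 was low against H2-D1 in each cancer cluster with at least 50 cells, more so in the primary tumour than in the LN. In the 6 primary tumour clusters H2-K1 ran from 3.30 to 11.8 CPM and H2-D1 from 612 to 1020 CPM. H2-K1 UMIs per H2-D1 UMI ran from 0.00370 to 0.0174 among these clusters. In the 2 LN clusters, of 513 and 51 cells, H2-K1 was at 32.6 and 41.2 CPM, with 0.0508 and 0.0380 H2-K1 UMIs per H2-D1 UMI. Cancer cells with at least 100 CPM of cell cycle genes had 0.0139 [0.0127 to 0.0152] in the primary tumour, and the others had 0.00869 [0.00776 to 0.00969]. A list of 13 lymphocyte genes, a sign of RNA from other cells, summed to 49.6 CPM in the cycling cells and 34.3 CPM in the others, to 55.5 CPM in the cluster with most H2-K1 and 23.2 CPM in the one with least, and the part of this RNA in these differences was not tested. In the LN the ratios were 0.0543 in cycling cells and 0.0583 in the others, with overlapping intervals. B2m and H2-D1 were highest in the same primary tumour cluster, of 671 cells, at 2033 and 1020 CPM.

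Cell by cell, H2-K1 was found in few cancer cells. In the primary tumour 92.9% of cancer cells had no H2-K1 UMI, against 3.76% with no H2-D1 UMI and 1.21% with no B2m UMI. Thinned to 1000 UMIs per cell, 0.800% [0.591 to 1.06] of primary tumour cancer cells had an H2-K1 UMI and 49.98% [48.7 to 51.3] had an H2-D1 UMI (82 shallower cells left out). In T cells of that library these shares were 92.7% and 72.5%, with 83 left out. In LN cancer cells 67.0% had no H2-K1 UMI, and the thinned share with one was 4.08% [2.65 to 5.97] against 48.7% for H2-D1. The 10 cells with most H2-K1 UMIs held 19.5% of the H2-K1 UMIs of the 6115 primary tumour cancer cells and 20.6% of those of the 610 LN cancer cells.

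RNA of other cells can reach droplets that hold a cancer cell, and 13 lymphocyte genes (such as Cd3d of T cells, Cd79a of B cells and Ptprc of all leukocytes) gave its level. They summed to 42.0 CPM in primary tumour cancer cells, with 1 gene at 0 and single genes up to 17.1 CPM. In LN cancer cells they summed to 169 CPM, with none at 0 and single genes from 2.70 to 44.3 CPM. In LN T cells and B cells the sums were 5720 and 10607 CPM. LN cancer cells had 1.71% of the H2-K1 level of LN T cells, 2.34% for H2-Q6 and 1.11% for H2-Q7. For genes of T cells or all leukocytes the values ran from 0.898% (Cd3e) over 1.12% (Ptprc), 1.43% (Cd3d), 1.85% (Cd52) and 3.41% (Trbc2) to 4.14% (Ltb). For H2-D1 the value was 40.9%, for B2m 38.3%, for H2-T22 39.8% and for H2-Q4 10.3%. In the primary tumour H2-K1, H2-Q6 and H2-Q7 in cancer cells were at 0.273%, 0.302% and 0.221% of the T cell level, beside 0.151% for Cd3e, 0.208% for Ptprc, 0.279% for Cd52 and 1.64% for Trbc2. Against T cells H2-K1, H2-Q6 and H2-Q7 thus lay in the range of these genes, and H2-D1 and B2m far above it. Against LN B cells H2-K1, H2-Q6 and H2-Q7 were at 2.72%, 1.94% and 2.996%. There the B cell genes Cd79a, Cd79b, Ms4a1, Ighm and Ighd were lower, at 0.573% to 0.708%, and Cd52 was at 1.16% and Ltb at 3.35%. Against primary tumour macrophages the same members were at 0.596%, 2.22% and 1.80%. C1qa of macrophages was at 0.171% there, Cd52 at 0.584%, Ptprc at 0.936% and Coro1a at 1.86%. The part of RNA from other cells in these levels was not tested.

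LN cancer cells were then ranked by their CPM of the 13 genes and divided into 4 groups of 152 or 153 cells. H2-K1 was at 7.60 CPM [5.38 to 10.4] in the group with least lymphocyte RNA, and at 6.54 and 8.11 CPM in the next groups. In the group with most it was at 135 CPM [125 to 146], and those 153 cells held 660 of the 775 H2-K1 UMIs. H2-Q7 was at 0.200, 0.934, 1.74 and 20.1 CPM in the same order, and H2-Q6 at 2.40, 1.12, 0.965 and 10.9 CPM. H2-D1 stayed between 636 and 761 CPM and B2m between 587 and 636 CPM over the 4 groups. H2-K1, H2-Q6 and H2-Q7 were therefore highest in 1 group, the one with 538 CPM of lymphocyte genes against 9.004 to 104 CPM in the others. The part of this RNA in the level of H2-K1 was not tested.

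**Figure D3:**
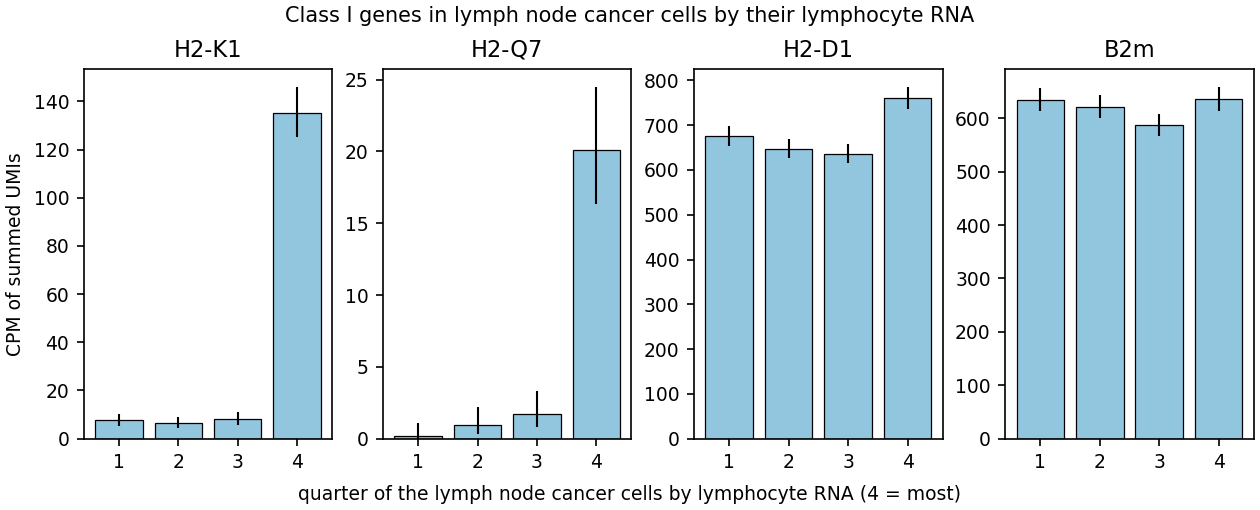
CPM of H2-K1, H2-Q7, H2-D1 and B2m in the 610 LN cancer cells, in 4 groups of 152 or 153 cells by their level of 13 lymphocyte genes (group 4 has the most). Each panel has its own axis from 0, and bars carry 95% Poisson intervals. H2-K1 is at 6.54 to 8.11 CPM in 3 groups and at 135 CPM in the group with most lymphocyte RNA, while H2-D1 and B2m have no such step.

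Cancer cells with no UMI of any of the 13 genes numbered 4127 in the primary tumour and 108 in the LN. H2-K1 was at 4.69 CPM [4.14 to 5.29] in the former and 8.63 CPM [5.63 to 12.6] in the latter. H2-D1 was at 739 and 709 CPM in the same cells. H2-K1 UMIs per H2-D1 UMI were 0.00634 [0.00560 to 0.00716] and 0.0122 [0.00793 to 0.0179]. No H2-Q7 UMI was found in those LN cells among 3014317 UMIs, against 39 UMIs (0.690 CPM) in those of the primary tumour. H2-Q6 was at 2.32 CPM [0.934 to 4.78] in those LN cells, from 7 UMIs, and at 0.584 CPM in those of the primary tumour. These cells were chosen for an absence of UMIs and were shallower than the rest, with medians of 11725 and 28651.5 UMIs.

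The next comparison set LN cancer cells against primary tumour cancer cells (log2 ratios of CPM, LN over primary tumour, with 0.5 UMI added to each sum). B2m was lower in the LN, at 619 against 1409 CPM, a log2 ratio of -1.19 [-1.21 to -1.16]. H2-T22 was lower too, at 31.0 against 68.8 CPM and -1.15 [-1.27 to -1.03]. H2-Q4 (-0.66), H2-M3 (-0.70) and H2-T23 (-0.36) had smaller ratios below 0. H2-D1 was nearly level, at -0.11 [-0.14 to -0.08], or 0.075 relative to the median gene, which lay at -0.19. Ratios were above 0 for H2-K1 (2.21 [2.07 to 2.36]), H2-Q6 (1.92 [1.46 to 2.36]) and H2-Q7 (1.95 [1.58 to 2.32]). In the cells without any lymphocyte UMI the ratio of H2-K1 was 0.90, that of H2-Q6 was 2.07 (7 LN UMIs), that of H2-Q7 was -2.08 (0 LN UMIs, a fitted value and no bound), that of H2-D1 was -0.059 and that of B2m was -1.09. Without cells with a UMI of Ptprc, Cd3e, Cd79a, Cd74 or Ms4a1, 91 LN and 898 primary tumour cancer cells were left. There H2-Q6 was at -0.19, from 3 and 11 UMIs, and H2-Q7 at 1.14, from 6 and 8 UMIs, counts too low to fix a direction.

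Of the 9 members, 8 had at least 100 UMIs in the cancer cells of 1 or both libraries, and H2-Q6 did not. Among these 8, H2-T22 and B2m were at least 2-fold lower in the LN, where 9.35% of all 10742 genes that reached the limit were. H2-K1 and H2-Q7 were at least 2-fold higher, where 4.63% of all genes were. Neither was 2-fold higher without cells with any lymphocyte UMI (0.90 and -2.08, background 4.61%), and H2-Q7 was at 0.95 with cancer cells taken by keratin UMIs. The median log2 ratio was -0.51 over the 8 members and -0.19 over all genes. The members were chosen with this contrast known, so nothing is read from these shares.

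The ratios of H2-D1 and B2m depended on which LN cancer cells were counted. In the 97 LN cancer cells outside the largest cluster H2-D1 had a log2 ratio of 0.48 and B2m of -0.42 to all primary tumour cancer cells. In the only cluster with at least 50 cancer cells of each library (51 LN and 1759 primary tumour cells) H2-D1 was at 1083 against 721 CPM and B2m at 1156 against 1305 CPM. The log2 ratios there were 0.59 and -0.17, H2-T22 was at 61.3 against 54.7 CPM, and no member was 2-fold lower (background 7.98%). H2-K1 was at 41.2 against 6.80 CPM in that cluster, with 157 CPM of lymphocyte genes in its LN cells and 37.1 CPM in its primary tumour cells, and their part in the result was not tested.

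**Figure D4:**
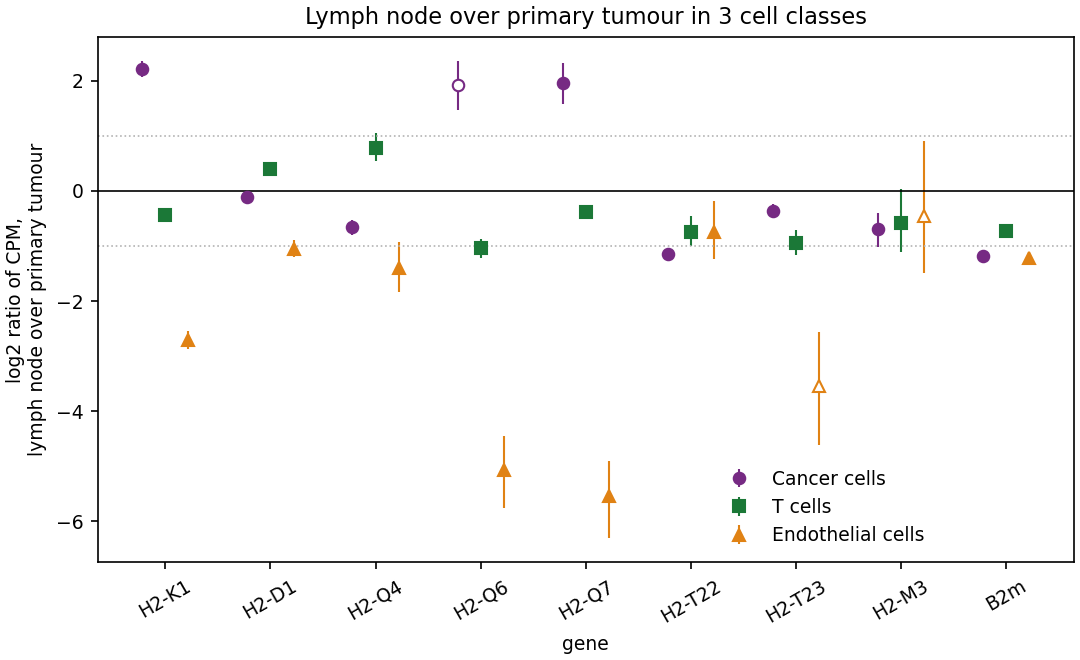
Log2 ratios of CPM, LN over primary tumour, of the 9 genes in cancer, T and endothelial cells, with exact 95% intervals of the split of UMIs. Open symbols mark genes under 100 UMIs, and dotted lines mark 2-fold. H2-K1, H2-Q6 and H2-Q7 are above 0 in cancer cells (2.21, 1.92 and 1.95) and below 0 in T and endothelial cells.

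Genes that load and cut peptides for class I had lower levels in LN cancer cells. All 13 genes of the list were below 0, and 9 of 13 were at least 2-fold lower (background 9.35%), with a median log2 ratio of -1.51 against -0.19 over all genes. Tap1, a subunit of the peptide transporter, was at 19.3 CPM in the LN and 109 CPM in the primary tumour (-2.50 [-2.65 to -2.36]). Psmb9, a subunit of the immunoproteasome, was at 19.8 and 122 CPM (-2.62 [-2.77 to -2.48]). Tapbp, the tapasin that bridges transporter and heavy chain, was at 42.6 and 202 CPM (-2.24). The general chaperones of the same compartment were closer to level, with -0.65 for Calr, -0.40 for Canx and -0.20 for Pdia3. The list was put together with earlier results of these data known, so it is not independent evidence of a direction.

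The lower levels of this list were found mainly in the largest LN cluster. In the 108 and 4127 cells without a lymphocyte UMI, 8 of 13 genes were at least 2-fold lower (background 10.6% in these cells) and the median was -1.32. In the 97 LN cancer cells outside that cluster, 1 of 13 was at least 2-fold lower (background 11.9%) and the median was -0.60, against -0.29 over all genes. Within the cluster that held both libraries none was (background 7.98%), 5 of 13 were below 0 and the median was 0.11, with Tap1 at -0.36 and Psmb9 at 0.11.

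Among 16 regulators of class I genes, 2 were at least 2-fold lower in LN cancer cells (background 9.35%), none was 2-fold higher (background 4.63%), 10 of 16 were below 0 and the median was -0.33 against -0.19 over all genes. Nlrc5, the transactivator of class I promoters, was at 7.06 CPM in the LN and 25.4 CPM in the primary tumour (-1.84 [-2.10 to -1.60]). Irf1, an interferon-induced activator, was at 57.4 and 143 CPM (-1.32 [-1.40 to -1.23]). Nfkb1 (-0.94) and Rela (-0.98), subunits of NF-kB, were just short of 2-fold lower, and Rfxap (0.91), a subunit of the RFX complex, was just short of 2-fold higher. Outside the largest LN cluster the ratio of Nlrc5 was -0.70 and that of Irf1 was -0.88. Within the cluster that held both libraries they were -0.085 and -0.84. The receptor genes Ifngr1 (0.30) and Ifngr2 (-0.24) and the kinase gene Jak1 (0.21) were close to level.

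**Figure D5:**
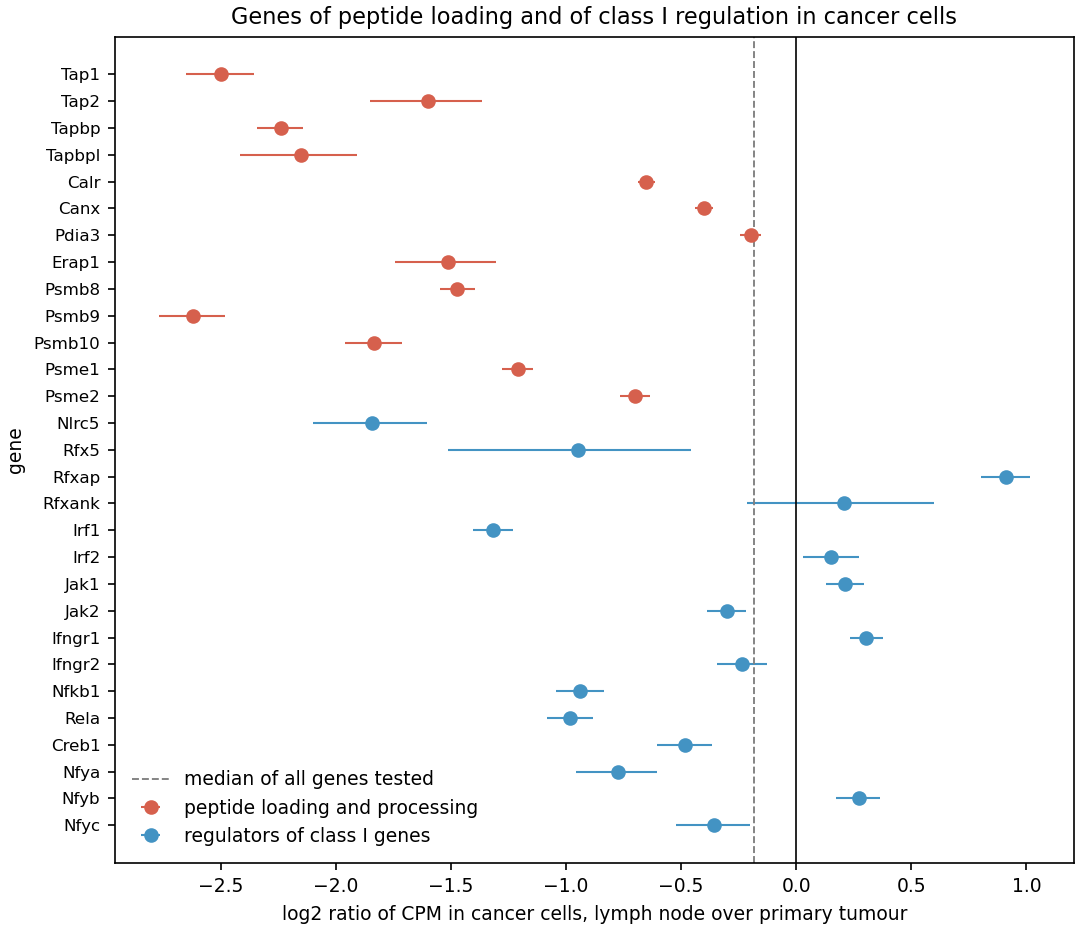
Log2 ratios of CPM in cancer cells, LN over primary tumour, for 13 genes of peptide loading and processing and 16 regulators of class I genes, with exact 95% intervals of the split of UMIs. The dashed line is the median of all genes that reached 100 UMIs (-0.19). Psmb9 (-2.62) and Tap1 (-2.50) lie farthest to the left.

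Other class I genes had no single pattern. H2-Q1 was at 9.46 CPM in primary tumour and 17.8 CPM in LN cancer cells, against 0.994 and 0.317 CPM in the T cells of the same libraries. Dendritic, NK and endothelial cells had 0 UMIs of H2-Q1, which in the primary tumour allows up to 17.6, 41.7 and 8.15 CPM, so that only in endothelial cells is this limit under the cancer cell level. In the LN the limits are 3.26, 11.3 and 1.06 CPM. H2-Bl was at 2.48 and 2.94 CPM in cancer cells and at 0 UMIs in primary tumour T cells and 0.0792 CPM in LN T cells, where H2-K1 was at 2998 and 2222 CPM. H2-Q1 was thus higher in cancer cells than in T cells of the same library, opposite to H2-K1. H2-T10, which shares windows with H2-T22, was at 5.82 and 2.89 CPM in cancer cells and 25.9 and 30.3 CPM in T cells. Of this list of 20 genes 17 were analysed, 9 reached 100 UMIs, 2 of these (H2-T24 and H2-M2, both under 2 CPM) were at least 2-fold lower in LN cancer cells (background 9.35%), and the median was 0.026 against -0.19 over all genes. H2-K2, H2-Q8 and H2-Q9 were not found by symbol in the count tables.

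Class II genes, which mark professional antigen-presenting cells, also gave UMIs in cancer cells. Cd74, the invariant chain of class II, was at 718 CPM in primary tumour and 285 CPM in LN cancer cells, against 69.6 and 128 CPM in the T cells of the same libraries. The LN cancer level was 1.79% of that in LN B cells and 2.39% of that in LN dendritic cells, and for H2-Aa, a class II chain, the values were 0.821% and 0.832%. Lymphocyte genes that T cells also express were at 1.16% (Cd52) to 3.35% (Ltb) of the B cell level, and the B cell genes Cd79a, Cd79b, Ms4a1, Ighm and Ighd at 0.573% to 0.708%. Cd74 thus lay above the B cell genes and within the range of the shared ones, and the part of RNA from other cells in the class II levels of LN cancer cells was not tested. In the primary tumour Cd74 in cancer cells was at 28.6% of the level in macrophages and 12.8% of that in dendritic cells, and H2-Aa at 6.88% and 2.97%, beside 0.936% and 1.38% for Ptprc. Ciita, the transactivator of class II, was at 6.85 and 0.588 CPM. Of 10 class II genes 7 reached 100 UMIs, 3 of these were at least 2-fold lower in the LN (background 9.35%) and the median was -0.87 against -0.19 over all genes. Of the 13 lymphocyte genes 10 reached the limit and 9 of these were at least 2-fold higher (background 4.63%), with a median of 2.22. Of 15 receptors of class I molecules, 2 reached it in cancer cells and neither was 2-fold apart.

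In T cells the members had smaller ratios. H2-D1 (0.39 [0.31 to 0.47]) and H2-Q4 (0.78 [0.54 to 1.04]) were higher in the LN, and the other 7 had ratios below 0. H2-K1 was at 2222 against 2998 CPM (-0.43 [-0.49 to -0.38]) and B2m at 1617 against 2681 CPM (-0.73 [-0.79 to -0.67]). All 9 members reached 100 UMIs and 1 of 9, H2-Q6 (-1.04), was at least 2-fold lower, where 19.7% of 7223 genes were. None was 2-fold higher, where 7.16% of all genes were, and the median was -0.59 against -0.31 over all genes. H2-K1 UMIs per H2-D1 UMI were 2.37 [2.22 to 2.53] in primary tumour and 1.34 [1.32 to 1.36] in LN T cells. The T cells of the libraries lay mostly in different clusters, and the ratio ran from 2.07 to 2.59 in the 3 clusters of the primary tumour and from 0.967 to 1.39 in the 6 of the LN. The cluster that held both, of 53 and 557 cells, had 2.13 [1.79 to 2.54] and 1.33 [1.28 to 1.38].

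Peptide loading in T cells had a median ratio of -0.31, equal to that of all genes, and 6 of 13 genes were at least 2-fold lower in the LN (background 19.7%), with Tap1 at 59.1 against 232 CPM and Psmb9 at 68.9 against 229 CPM. Of 14 regulators that reached the limit, 1 was lower (Nlrc5, 40.5 against 111 CPM) and 1 higher (Ifngr2). Receptors that bind class I molecules differed most. Klrc1, which with Klrd1 forms the receptor of H2-T23, was at 7.44 CPM in LN and 349 CPM in primary tumour T cells (-5.55 [-5.90 to -5.22]), and Klrd1 at 98.1 and 677 CPM (-2.79). Cd8a, a coreceptor of classical class I, was at 73.2 and 780 CPM (-3.41). All 5 receptor genes that reached the limit, of 15, were at least 2-fold lower, with a median of -3.41. The makeup of the T class thus differed between the libraries, and its part in the members' ratios was not tested.

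Dendritic cells had nearly level H2-K1 (0.11) and B2m (-0.14) in both tissues and more H2-D1 in the LN (0.71). H2-K1 UMIs per H2-D1 UMI were 1.69 [1.43 to 2.00] in 37 primary tumour and 1.12 [1.05 to 1.18] in 146 LN dendritic cells. These lay mostly in different clusters, and the cluster that held both, of 33 and 29 cells, had 1.76 [1.48 to 2.09] and 0.970 [0.824 to 1.14]. Class II genes differed as well, with 6 of 6 that reached 100 UMIs at least 2-fold higher in LN dendritic cells (background 8.69%), and the part of this makeup in the values was not tested. In NK cells the values were 1.93 [1.49 to 2.50] and 1.37 [1.23 to 1.51], from 30 and 85 cells. In neutrophils they were 0.880 [0.717 to 1.08] and 0.254 [0.181 to 0.350], from 269 and 31 cells. The value was lower in the LN in all 5 classes other than cancer cells with at least 20 cells in both libraries. These were T, dendritic, NK, neutrophil and endothelial cells, and the intervals overlapped in NK cells. In cancer cells it was higher, at 0.0560 against 0.0112. In those with no UMI of the 13 lymphocyte genes it was 0.0122 against 0.00634. Of 7 members that reached 100 UMIs in dendritic cells none was 2-fold lower or higher (background 6.64% and 8.69%). Of 5 in NK cells none was either (2.90% and 11.3%). Of 3 in neutrophils none was lower and 1, H2-D1, was higher (37.8% and 13.3%).

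Endothelial cells had lower levels of these genes in the LN. H2-K1 was at 245 CPM in LN and 1605 CPM in primary tumour endothelial cells (-2.71 [-2.87 to -2.55]), and H2-D1 at 604 and 1252 CPM (-1.05 [-1.20 to -0.90]). H2-Q6 (-5.06) and H2-Q7 (-5.54) had larger ratios still, with 26 and 21 UMIs in the LN class. These LN levels were 9.15 and 7.39 CPM, or 16.5 and 13.1 CPM as the mean of single-cell CPM. Of 7 members that reached 100 UMIs, 6 were at least 2-fold lower, where 14.4% of 3712 genes were, and none was 2-fold higher, where 25.1% were. The median was -1.40 against 0.24 over all genes. Of 7 peptide loading genes that reached the limit 1 was at least 2-fold lower (Tapbp, 42.6 against 239 CPM), with a median of -0.28, and of 8 regulators 2 were lower and 2 higher. H2-T23 was at 5.28 against 62.5 CPM and was not found in high endothelial cells, where 3 UMIs would be 3.66 CPM. Pecam1 and Cdh5, which mark endothelial cells, were also lower in the LN class, at 151 and 159 CPM against 1013 and 1151 CPM, and the part of this in the result was not tested.

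Depth differed within the LN endothelial classes. The 107 cells over 10000 UMIs (median 32137) had 237 CPM of H2-K1, 4.44 CPM of H2-Q7 and 2.07 CPM of H2-T23. The 75 cells up to 10000 UMIs had 343, 42.0 and 28.0 CPM, beside 378 CPM of lymphocyte genes against 129 CPM in the deeper cells. In the primary tumour the 14 deeper endothelial cells had 1435 CPM of H2-K1 and the 35 shallower ones 1834 CPM. LN endothelial cells of either depth thus lay below those of the primary tumour in H2-K1. Endothelial cells sorted from LNs were also part of the study, and the labels do not say whether any were in this library.

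Over the 15 pairs of class and library with at least 50 cells, the genes whose pattern was most like that of H2-K1 were Tmsb4x (Pearson r = 0.93), Tacc1 (0.91), Pdk3 (0.91), H2-Q7 (0.90) and H2-Q6 (0.88), of 10516 genes. H2-K1 with H2-D1 gave 0.72. For H2-D1 they were H2-Q7 (0.90), Hps4 (0.90), Gpr183 (0.89), St8sia4 (0.87) and Dapp1 (0.87). For B2m they were Tap2 (0.88), Clec2d (0.85), Tapbp (0.83), Syce2 (0.82) and Tap1 (0.81), so that 3 of 5 belong to peptide loading. These values describe log levels, the pairs share 2 libraries and their depth, and classes are not replicates.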

How the data were processed

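Droplet single-cell 3′ libraries were prepared from the pooled tissue of 6 mice per library, after collagenase digestion and lysis of red cells. The authors deposited raw UMI counts per gene and cell, aligned to GRCm38, for 22620 genes in each library. The matrix headers name Cell Ranger 5.0.0 and the submitters' processing notes name version 2.1.1, so the version is uncertain. The study's methods exclude genes found in few cells or with a low mean. Whether this was done before deposit is not given in the sources used here. Reads that fit more than 1 gene are usually not counted, which can lower near-identical genes.

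Cells with more than 200 and up to 6000 detected genes and at most 5% mitochondrial UMIs were kept. Doublets were called with Scrublet in scanpy 1.11.5 (expected rate 6%). It marked 391 cells of the primary tumour. In the LN its automatic threshold marked 0 cells and did not work, so the 616 cells with the highest scores were removed. Both libraries were clustered together (2000 variable genes, 30 components, 15 neighbours, Leiden resolution 1 with igraph 0.11.9). Cell cycle genes came from Seurat 5.3.0. Clusters were named from fixed marker lists, and 614 and 166 cells stayed unnamed. UMIs were summed over the cells of each class with at least 20 cells. Fold limits were 2-fold among genes with at least 100 UMIs in 1 or both libraries. For shares of cells, each cell was thinned to 1000 UMIs. Intervals are exact (Poisson, Clopper-Pearson, or binomial for the split of UMIs between 2 sums). The interval for the split was tried on simulated Poisson counts and held the true value at about its stated rate. Those counts had no spread between cells, so this checks the formula only. Gene positions are those of GENCODE vM21. A motif or gene sequence was matched by letters only.

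The 9 genes, the gene lists and the comparisons were chosen with earlier results of these data known. The genes named are these 9, the genes of the lists, except 1 regulator that is not reported here, and for H2-K1, H2-D1 and B2m the 5 genes with the highest correlation of log2(CPM + 10) over classes. No comparison between libraries was tested, since each tissue had 1 library. The alternatives concerned cell limits, doublets, clustering, scaling, depth, and cells with lymphocyte RNA.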

Additional observations from a re-analysis of the deposited data

Results flagged for a closer look

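For 5 of the 9 genes the log2 ratio of LN to primary tumour ran one way in cancer cells and the opposite way in T cells, with counting intervals that left out 0 in both. For H2-K1 it was 2.21 in cancer cells and -0.43 in T cells. H2-Q6 gave 1.92 and -1.04, and H2-Q7 gave 1.95 and -0.38. For H2-D1 it was -0.11 in cancer cells and 0.39 in T cells, and for H2-Q4 -0.66 and 0.78. The signs in cancer cells depended on the cells counted for 4 of these genes, and for H2-D1 also on the scaling. H2-D1 was at 0.075 when scaled by the median gene, 0.48 in LN cells outside the largest cluster and 0.59 within the cluster that held both libraries, the sign it had in T cells. H2-Q4 was at 0.59 and 0.24 in the last pair of settings. H2-Q6 was at -0.19 without cells with a UMI of Ptprc, Cd3e, Cd79a, Cd74 or Ms4a1, from 3 LN and 11 primary tumour UMIs. H2-Q7 was at -2.08, from 0 LN UMIs, without cells with a UMI of any of the 13 lymphocyte genes. H2-K1 stayed above 0 in each alternative run for cancer cells. These differences between the classes were not tested, since each tissue gave 1 library.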

How the results depend on the processing

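Values are log2 ratios of LN to primary tumour cancer cells unless stated otherwise, and the cause of each shift was not tested except where the choice of cells itself sets it. H2-K1 stayed above 0 and B2m below 0 under each alternative run. With doublets kept, H2-K1 was at 1.89 and H2-K1 UMIs per H2-D1 UMI in LN cancer cells (K per D) at 0.0608. With a mitochondrial limit of 10%, K per D was 0.0503. Without an upper limit on genes H2-K1, H2-D1 and B2m were at 2.37, -0.22 and -1.36. Cancer cells then numbered 1306 in the LN and 6743 in the primary tumour. With each library clustered on its own H2-K1 was at 2.77. With the mean of single-cell CPM the 3 genes were at 2.62, -0.056 and -1.15 and K per D at 0.0792. Scaled by the median gene they were at 2.40, 0.075 and -1.0, and H2-T22 was at -0.97, short of 2-fold lower. With cancer cells taken by keratin UMIs without clustering, H2-K1 was at 1.04, H2-D1 at -0.16 and K per D at 0.0135. With cells of 15000 to 40000 UMIs the 3 genes were at 2.41, -0.060 and -1.09 and K per D at 0.0626. Without cells with a UMI of Ptprc, Cd3e, Cd79a, Cd74 or Ms4a1 they were at 1.04, -0.14 and -1.33, K per D at 0.0246 and H2-Q6 at -0.19. H2-T22 was at -1.07 there and H2-M3 at -1.67, the latter from 5 LN UMIs. The share of all genes past 2-fold was not counted in these cells.

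The next alternatives were chosen after seeing the data. Without cells with a UMI of any of the 13 lymphocyte genes H2-K1, H2-D1 and B2m were at 0.90, -0.059 and -1.09. K per D was 0.0122, and 4 of 16 regulators were at least 2-fold lower (background 10.6%). H2-Q7 was at -2.08, a fitted value from 0 LN UMIs that sets no bound. The 3 members counted as 2-fold lower there include H2-Q7, which is not shown to be lower, since 3 LN UMIs would be 0.995 CPM against 0.690 CPM in the primary tumour. With LN cancer cells outside their largest cluster the 3 genes were at 3.42, 0.48 and -0.42, H2-Q4 at 0.59, H2-T23 at 0.23 and K per D at 0.0854. There 0 members, 1 of 13 peptide loading genes and 1 of 16 regulators were at least 2-fold lower (background 11.9%). Within the cluster that held both libraries the 3 genes were at 2.61, 0.59 and -0.17 and K per D at 0.0380. H2-Q4 was at 0.24, H2-T22 at 0.18 and H2-T23 at 0.17. In that cluster 0 members, 0 of 13 peptide loading genes and 2 of 16 regulators were at least 2-fold lower (background 7.98%).

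Of 152 member levels with at least 20 UMIs, the mean of single-cell CPM moved 2 by more than 1.5 times. They were H2-Q6 and H2-Q7 in LN endothelial cells, from 9.15 to 16.5 CPM and from 7.39 to 13.1 CPM. No paired analysis was possible because each tissue gave 1 library and no cell is tied to a mouse. Classes of 29 to 49 cells (high endothelial, NK, dendritic, neutrophil and endothelial cells in 1 library or both) give wide intervals for the rarer members.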
